A study of Mus musculus with 24 samples.

Results

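Fc gamma receptors are the receptors through which phagocytes bind the constant region of immunoglobulin G. The genes described are the activating receptors Fcgr1 and Fcgr3, the inhibitory receptor Fcgr2b, and Fcer1g, which encodes the signalling chain shared by the activating receptors. Every probe that the array's annotation assigns to these 4 genes was taken, which gave 6 of 25697 probes, 3 of them for Fcgr2b. To examine how age and sex alter hippocampal gene expression, RNA from the hippocampi of 24 C57BL6 mice that had received no genetic or drug intervention was hybridized to Illumina Mouse Ref8 arrays, 1 array per mouse. There were 4 mice in each of 6 groups: female young (FY, 3 months), female adult (FA, 12 months), female old (FO, 24 months), male young (MY, 3 months), male adult (MA, 12 months) and male old (MO, 24 months). According to the study's methods all females were in diestrus when killed, and the old females were reproductively senescent, so that age and loss of cycling cannot be told apart in FO. Daily vaginal lavage is described for the females alone, so sex and this handling cannot be told apart either.

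An activating receptor binds the antibody but has no signalling motif of its own and passes the signal through the common gamma chain, whose immunoreceptor tyrosine-based activation motif (ITAM) recruits the kinase Syk and leads to phagocytosis, an oxidative burst and cytokine release. The inhibitory receptor carries the opposing motif (ITIM) in its own tail and recruits a lipid phosphatase that dampens this signal, and the balance between the receptor classes sets the threshold of the cell. In the brain the receptors are known from microglia and from macrophages of the vessel walls and borders.

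The values are background-subtracted, normalized probe intensities. Lower intensities were raised to a floor of 16 ahead of the log2 transform, since 22.4% of all values were negative, and probes had to exceed 16 on each of the 4 arrays of some group to be kept. Of all probes 11901 were kept, and 11775 to 12437 probes per array were above 16. Kept probes were compared with limma in 1 model over the 6 groups. Calls were made where the p-value, adjusted by Benjamini-Hochberg over all kept probes, was under 0.05. A level is an intensity, a change is a difference of mean log2 intensities with its standard error (SE), and levels are not compared between probes. Of the 6 probes, 4 were kept, 1 for each gene. Fcgr1 was kept only because all 4 FO arrays were above 16, so its difference from the other groups is partly built into the filter.

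Fcgr3, the low-affinity activating receptor, was highest in old females. Its probe (ILMN_2687403) had intensities of 57.9, 57.0, 54.1 and 64.8 in FY, 77.3, 63.5, 69.6 and 91.8 in FA and 125.1, 96.8, 111.3 and 115.5 in FO. Every FO array lay above every FY and FA array, whereas FA and FY shared part of their range. The probe is a 50-base oligonucleotide whose first 30 bases are shown here, since the Fcgr3 values come from this probe alone.
Fcgr3 probe: ccacacagccttcctttgaaagcaacttac
The log2 change was 0.94 for FO against FY (1.92-fold, SE 0.15, limma adjusted p = 0.00136), 0.58 for FO against FA (adjusted p = 0.185) and 0.36 for FA against FY (adjusted p = 0.393). In a whole tissue, more cells of a type and more RNA per cell cannot be told apart.

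Fcgr1, the high-affinity receptor and the one that can bind a single antibody without antigen, was above the floor in old females and at or near it elsewhere. Its probe (ILMN_1229523) had 10.04, 14.4, 11.8 and 11.9 in FY, 15.3, 11.9, 13.7 and 14.3 in FA and 21.2, 25.5, 21.8 and 28.3 in FO. All 8 arrays of FY and FA were under 16 and all 4 FO arrays above it, so the change can only be bounded. It was at least 1.501-fold for FO against FY (at least 0.59 on the log2 scale, limma adjusted p = 0.00519) and at least 1.501-fold for FO against FA (adjusted p = 0.0105). Since the probe was kept through FO alone, these p-values are not independent of the filter, and Fcgr1 is not counted among the calls with age in females.

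Fcer1g, the gamma chain on which surface expression of the activating receptors depends in mice, was well above the floor in every array. Its probe (ILMN_2748875) had intensities of 252.7, 286.0, 271.7 and 324.7 in FY, 390.5, 324.4, 297.9 and 341.9 in FA and 514.3, 458.1, 537.7 and 638.1 in FO. The FO arrays were again all above the FA and FY arrays, and FA overlapped FY. The first 30 bases of its probe, the only one for Fcer1g, are given as for Fcgr3.
Fcer1g probe: cagaacagacgtgcttggctgcattctttt
The log2 change was 0.92 for FO against FY (1.89-fold, SE 0.14, limma adjusted p = 0.000594), 0.66 for FO against FA (adjusted p = 0.0270) and 0.25 for FA against FY (adjusted p = 0.521).

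Fcgr2b, the inhibitory receptor, was likewise highest in old females. The kept probe (ILMN_1228657) had 15.0, 18.7, 25.9 and 13.3 in FY, 26.5, 22.9, 17.6 and 23.9 in FA and 41.9, 35.0, 53.9 and 48.9 in FO. The lowest FO array exceeded the highest FY and FA arrays, and 2 of the 4 FY arrays were under 16, so that the size of the change, and its rank among these genes, depends on the floor. The log2 change was 1.24 for FO against FY (2.36-fold, SE 0.20, limma adjusted p = 0.000888), 0.98 for FO against FA (SE 0.20, adjusted p = 0.0175) and 0.26 for FA against FY (adjusted p = 0.656). The 2 other Fcgr2b probes, annotated to a different RefSeq transcript of the gene, did not exceed 14.3 in any of the 24 arrays and were not kept, with means of 10.8 (ILMN_3102376) and 5.04 (ILMN_3029178) in FO.

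**Figure D1:**
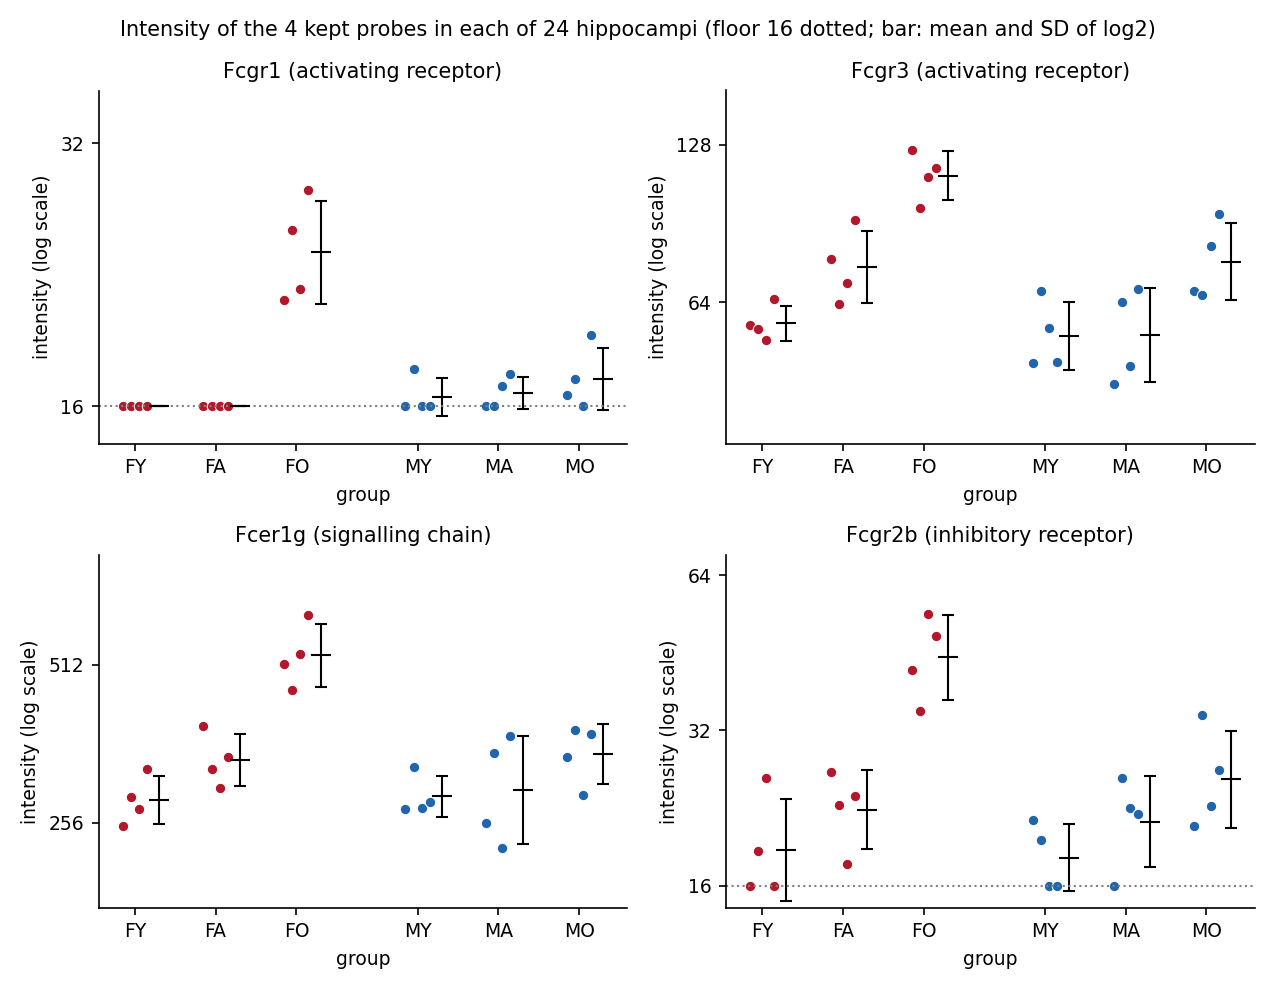
Intensity (log axis, floored at 16) of the kept probe of Fcgr1, Fcgr3, Fcer1g and Fcgr2b in each of 24 hippocampi, by group. Points are arrays, and bars are the mean and SD of the log2 values. In each panel the 4 FO arrays lie above all other groups, as for Fcgr3, where FO spans 96.8 to 125.1. For Fcgr1, kept through FO alone, this is partly built into the filter. Of 11901 kept probes, FO lay wholly above FY in 3.05%, above FA in 3.88% and above MO in 3.18%.

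An increase with aging in females was called for Fcgr3, Fcer1g and Fcgr2b. Over all 11901 kept probes, 79 were called higher in FO than in FY (0.664%), and the median log2 change was -0.00. The number called in both directions was 85, and 56 without FO replicate 4. In 363 kept probes (3.05%) every FO array was above every FY array, and the probes of Fcgr2b, Fcgr3 and Fcer1g were among them. Fcgr1 was also among them, but it was kept through FO alone, so its separation is partly built into the filter. No single array decided these calls, as leaving out each FO or FY array in turn gave a highest adjusted p of 0.00706 for Fcgr2b, 0.00851 for Fcgr3 and 0.00528 for Fcer1g. The adjusted p of Fcgr1 was 0.125 with only FO and FY in the fit. The size depended on the floor for the dim probes, with 1.01 for Fcgr1 and 1.33 for Fcgr2b at a floor of 8, 0.47 for Fcgr2b at a floor of 32, and 0.26 for Fcgr1, 0.48 for Fcgr2b, 0.58 for Fcgr3 and 0.81 for Fcer1g with 50 added to each value in place of a floor.

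Between adult and old females the background was 42 probes called higher in FO (0.353%) and 462 with FO wholly above FA (3.88%). Of all kept probes 43 were called in both directions, 15 to 48 on leaving out each array (fewest without FO replicate 4, and 17 to 24 without FA replicate 2, 3 or 4 or FO replicate 3) and 4 with only FO and FA in the fit. The calls for Fcgr1, Fcgr2b and Fcer1g in this comparison depended on single arrays and on the processing. Without FA replicate 3 or FO replicate 4 none of the 3 remained called, without FA replicate 2 or 4 or FO replicate 3 only Fcgr1 did, and without FO replicate 1 the adjusted p of Fcer1g was 0.0635. None of the 3 was called with only FO and FA in the fit. Calls were also lost for Fcgr1 and Fcgr2b at a floor of 8 (adjusted p = 0.0552 and 0.0985), for Fcgr1 and Fcer1g at a floor of 32 (1 and 0.0621) and for Fcgr2b and Fcer1g without a filter (0.0607 and 0.117), whereas Fcgr3 was called with array weights (0.0245). FO enters both this comparison and that with FY. Between FA and FY limma called none of the kept probes of the array (0%), with 1305 at an unadjusted p under 0.05, Fcgr3 among them (unadjusted p = 0.0283).

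**Figure D2:**
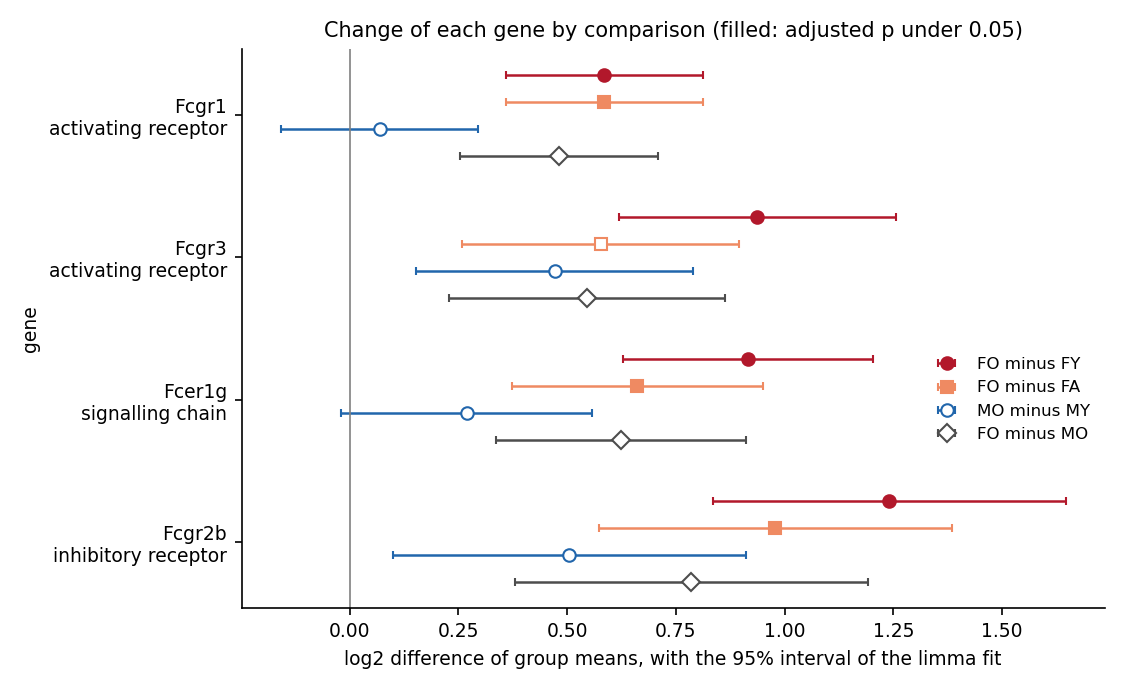
Log2 difference of group means (x axis) for each gene (y axis) in FO minus FY, FO minus FA, MO minus MY and FO minus MO. Bars are 95% intervals of the limma fit and filled symbols have an adjusted p under 0.05. All 4 genes are filled for FO minus FY, and none is filled for MO minus MY or FO minus MO. Fcgr1 was kept through FO alone, so its filled symbols are not independent of the filter and it is not counted as a call. Of 11901 kept probes, 79 (0.664%) were called higher in FO than in FY.

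In males the same genes had smaller mean differences, none of which was called. Fcgr3 had intensities of 49.1, 67.4, 57.1 and 49.2 in MY, 44.7, 64.2, 48.2 and 68.0 in MA and 67.4, 66.0, 81.9 and 94.2 in MO. The highest MY array lay above the lowest MO array, and MA and MY had nearly the same mean. The log2 change for MO against MY was 0.47 (SE 0.15, limma adjusted p = 0.236) and for MO against MA 0.47 (adjusted p = 0.897).

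The gamma chain and the inhibitory receptor overlapped between the male ages. Fcer1g had 271.5, 327.3, 273.6 and 280.2 in MY, 255.5, 348.3, 229.1 and 374.8 in MA and 341.3, 385.2, 288.7 and 378.0 in MO, with a log2 change of 0.27 for MO against MY (SE 0.14, limma adjusted p = 0.479). Fcgr2b had 21.5, 19.6, 14.0 and 11.9 in MY, 15.6, 25.8, 22.6 and 22.01 in MA and 20.9, 34.2, 22.9 and 26.8 in MO, with a log2 change of 0.50 (SE 0.20, adjusted p = 0.318). The lowest MO array of Fcgr2b was below the highest MY array, and 2 MY arrays were under 16.

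Fcgr1 stayed close to the floor in males of every age. It had 12.98, 17.7, 10.7 and 12.1 in MY, 12.6, 14.3, 16.9 and 17.4 in MA and 16.5, 17.2, 15.5 and 19.3 in MO, so that 3, 2 and 1 of the 4 arrays were at the floor. The log2 change of 0.07 for MO against MY (limma adjusted p = 0.835) is therefore mostly a comparison of floored values. Between MO and MY, 8 kept probes of the array were called higher (0.0672%), and 193 had MO wholly above MY (1.62%), none of them a probe of these genes. The number called in both directions was 12, and 6 to 29 on leaving out each array (6 without MY replicate 1 or 3, 24 without MO replicate 1 and 29 without MO replicate 2).

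The study's methods used a two-way analysis of variance (age and sex), SNK pairwise comparisons and at least a 1.2-fold change. This test was rerun here on the floored log2 values of the 11901 kept probes, so its calls are not the study's own. By this test Fcgr3 was called between MO and MY, as were 145 probes of the array that were higher in MO (1.22%). It also called Fcgr3 as higher in FA than in FY (0.504%), in FO than in FA (1.65%), in MO than in MA (0.731%) and in FA than in MA (0.958%), with the share of kept probes called higher in parentheses. Fcgr1, Fcgr2b and Fcer1g were called by it between FO and FA and in none of the other 4 of these comparisons. The 95% interval of the limma change for MO against MY was 0.15 to 0.79 for Fcgr3, 0.10 to 0.91 for Fcgr2b and -0.02 to 0.56 for Fcer1g. The missing calls therefore do not show that these genes stay level with age in males.

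In old mice the levels were higher in females than in males for each kept probe, though limma called none of them. Fcgr3 averaged 112 ± 11.8 in FO and 77.3 ± 13.3 in MO (SD, n = 4 each), a log2 difference of 0.55 (SE 0.15, limma adjusted p = 0.165). Fcer1g averaged 537 ± 75.2 in FO and 348 ± 44.1 in MO, a log2 difference of 0.62 (SE 0.14, adjusted p = 0.0783). Fcgr2b averaged 44.9 ± 8.26 in FO and 26.2 ± 5.90 in MO, a log2 difference of 0.79 (SE 0.20, adjusted p = 0.126).

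Fcgr1 averaged 24.2 ± 3.33 in FO and 17.1 ± 1.60 in MO, a log2 difference of 0.48 (SE 0.11, limma adjusted p = 0.0854) with 1 MO array at the floor. For each of the 4 kept probes every FO array was above every MO array, as it was in 379 kept probes of the array (3.18%), and 16 kept probes were called higher in FO (0.134%). For Fcgr1, kept through FO alone, this separation is partly built into the filter. The number called in both directions was 21, and 9 to 26 on leaving out each array (13, 11 and 9 without FO replicate 1, 3 or 4 and 10 without MO replicate 3). The methods' test called Fcgr1, Fcgr2b, Fcgr3 and Fcer1g between FO and MO, and called 381 probes of the array higher (3.2%), but none of the 4 genes was called there after Benjamini-Hochberg adjustment of that test.

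At the younger ages limma called no difference between the sexes in these genes. FA and MA overlapped for each gene, and 6 probes of the array were called in either direction (0.0504%), with the largest difference in Fcgr3 (0.43 log2, SE 0.15, limma adjusted p = 0.753), where FA averaged 75.6 ± 12.2 and MA 56.3 ± 11.5. FY and MY differed by -0.04 to 0.08 on the log2 scale, with adjusted p of 0.926 to 0.981, where 4 probes of the array were called (0.0336%). None of these genes was among the 223 kept probes with FA wholly above MA (1.87%) or the 282 with FY wholly above MY (2.37%).

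The sex divergence of aging was tested as the change from young to old in females less that in males. This difference was 0.52 for Fcgr1 (SE 0.16), 0.74 for Fcgr2b (SE 0.28), 0.47 for Fcgr3 (SE 0.22) and 0.65 for Fcer1g (SE 0.20), with the larger change in females in each. The unadjusted limma p was 0.00290, 0.0143, 0.0429 and 0.00322 in that order of genes, and the adjusted p was 0.841 to 0.843. Fcgr1 was kept through FO alone and was at the floor in all FY arrays and 3 MY arrays. Its estimate and p-value are therefore not independent of the filter. No kept probe of the array passed this test (0%), with 699 at an unadjusted p under 0.05. A divergence of the Fc gamma receptor genes was therefore not called over all probes, and the larger change in females is a difference of estimates.

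Ordered by mean log2 intensity, FO ranked first and MO second for each gene. FO was the only group whose arrays did not overlap those of the next group. Over all kept probes, 379 (3.18%) had FO wholly above MO, and the share with this order of groups was not counted. Below FO, MO and FA were neighbours for Fcgr2b, Fcgr3 and Fcer1g with gaps of 0.03 to 0.19 on the log2 scale. Every pair of neighbours from MO downwards overlapped. The lowest group was MY for Fcgr2b and Fcgr3 and FY for Fcer1g, and for Fcgr1 FY and FA were both at the floor. The place of FO is partly built into the filter for Fcgr1, which was kept through FO alone.

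To compare activating with inhibitory receptors, the log2 difference of 2 probes was taken within each array, and its change between groups was tested by exact permutation over the 70 divisions of 8 mice (two-sided, smallest possible p 0.0286). With 5 pairs and 9 comparisons, 45 such tests were made, and none had an adjusted p under 0.514. The absolute size of a difference has no meaning, since probes differ in brightness per molecule.

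Fcgr3 minus Fcgr2b was 1.58, 1.47, 1.05 and 1.24 in the FO arrays, against 1.85, 1.61, 1.06 and 2.02 in the FY arrays. FO thus lay inside or below the FY range, with a change of -0.30 (SE 0.24, exact permutation p = 0.229, adjusted p = 0.643). In males it was 1.69, 0.95, 1.84 and 1.81 in MO, against 1.19, 1.78, 1.83 and 1.62 in MY, a change of -0.03 (SE 0.26, exact permutation p = 0.886). Between FO and MO the change was -0.24 (SE 0.24, exact permutation p = 0.343).

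Fcer1g minus Fcgr2b, the chain against the inhibitory receptor, was 3.62, 3.71, 3.32 and 3.71 in FO, against 3.98, 3.93, 3.39 and 4.34 in FY. The ranges overlapped through 1 low FY array, and the change was -0.32 (SE 0.22, exact permutation p = 0.2). Against FA, with 3.88, 3.82, 4.08 and 3.84, the FO arrays were all lower, and the change of -0.32 (SE 0.11) had the smallest exact permutation p possible (0.0286) and an adjusted p of 0.514.

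The other pairs gave no call either. Fcgr1 minus Fcgr2b changed by -0.65 between FO and FY (SE 0.24, exact permutation p = 0.0571) and by -0.44 between MO and MY (SE 0.17, exact permutation p = 0.0571), with Fcgr1 at the floor in all FY and in 3 MY arrays. Fcer1g minus Fcgr3, the chain against its receptor, changed by -0.02 between FO and FY (SE 0.10, exact permutation p = 0.8) and by -0.20 between MO and MY (SE 0.18, exact permutation p = 0.371). The direction of Fcgr3 and of Fcer1g against Fcgr2b depended on the floor. Fcgr1 minus Fcgr2b kept its sign at every floor tried, but a floor of 32 lies above every Fcgr1 value. At that floor the difference follows Fcgr2b alone, so its sign there says nothing about Fcgr1. With a floor of 32 the change of Fcgr3 minus Fcgr2b between FO and FY was 0.47, and with 50 added to each value in place of a floor it was 0.10. For Fcer1g minus Fcgr2b these were 0.45 and 0.33.

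**Figure D3:**
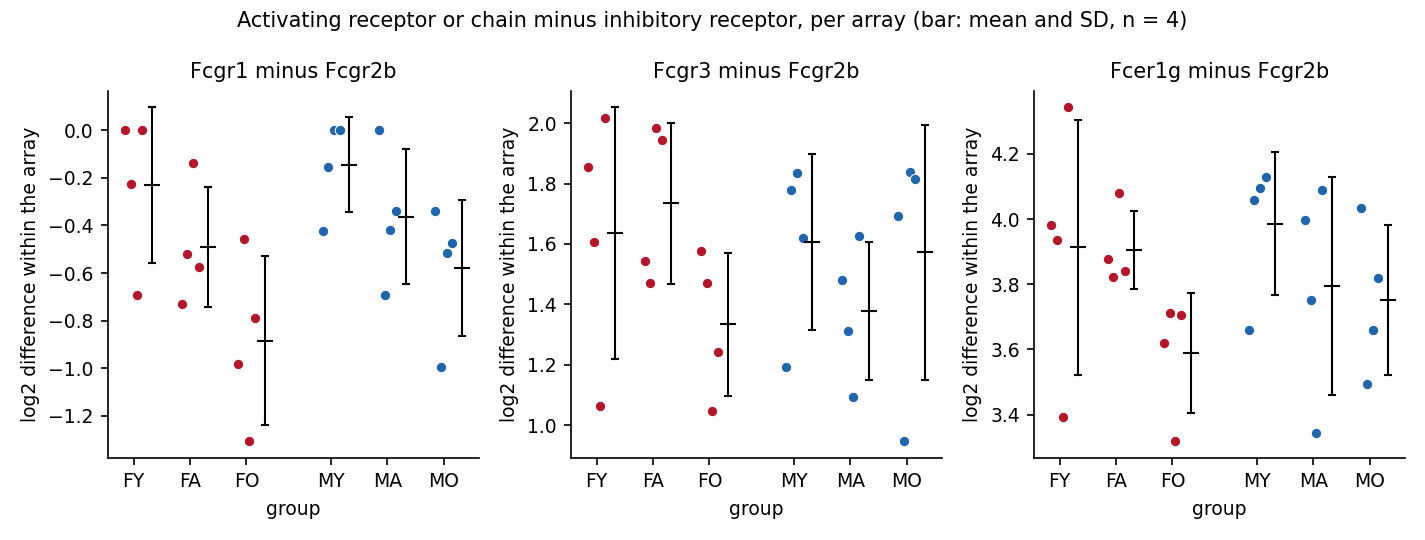
Log2 intensity of Fcgr1, Fcgr3 or Fcer1g minus that of Fcgr2b within each array (y axis), by group (x axis). Points are arrays and bars the mean and SD of 4. For Fcgr3 minus Fcgr2b the 4 FO arrays (1.05 to 1.58) overlap the FY arrays (1.06 to 2.02).

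The remaining activating receptor of the mouse, Fcgr4, which binds antibodies of the IgG2 subclasses, has a probe on the array that was not kept. It had 17.1, 13.6, 14.7 and 30.8 in FO, against 5.1, -1.4, 1.8 and 2.2 in FY. Every FO array was higher, but 2 of the 4 were under 16 and all FY arrays were, so that its change rests mostly on floored values. Tested without the filter, the log2 change was 0.26 (limma adjusted p = 1). The MO arrays had -4.6, 6.9, 4.7 and 3.7, and the MY arrays 3.6, 1.4, 4.7 and 0.9, without a separation.

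Of 14 other Fc receptors and related genes, Fcgr4 included, 13 had a probe and 4 were kept, with a median log2 change of -0.06 for FO against FY and none called. Fcgrt, the neonatal receptor that recycles immunoglobulin G, averaged 195 ± 10.7 in FO and 245 ± 23.0 in FY (log2 change -0.32, limma adjusted p = 0.515), and 159 ± 10.2 in MO and 231 ± 24.1 in MY (-0.53, adjusted p = 0.0883). Fcrls, an Fc receptor-like gene used as a microglial marker, averaged 165 ± 19.0 in FO and 105 ± 22.2 in MO (0.68, adjusted p = 0.0480) and was called in that comparison. It was not called with age in females (0.21, adjusted p = 0.894). The ligand could not be followed, since of 21 immunoglobulin genes 1 had a probe, Jchain, which was under 16 in all 24 arrays and not kept.

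The gamma chain has a counterpart, Tyrobp, the ITAM adaptor of Trem2 and other microglial receptors. Tyrobp averaged 125 ± 25.7 in FO and 61.3 ± 4.49 in FY (log2 change 1.01, SE 0.17, limma adjusted p = 0.00173), and 72.1 ± 15.1 in MO and 52.5 ± 12.5 in MY (0.47, adjusted p = 0.291). It was the 1 kept gene among 10 further ITAM or hemITAM chains. Of 15 further receptors that use the gamma chain, such as Clec4e and Oscar, 11 had a probe, and Oscar was the 1 kept, with a log2 change of 0.08 for FO against FY (adjusted p = 0.999).

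Of 41 kinases and adaptors downstream of activating receptors, 17 were kept, 3 were called higher in FO than in FY and none lower, with a median log2 change of 0.16. Lat2, a transmembrane adaptor phosphorylated after Fc receptor ligation, averaged 65.0 ± 8.04 in FO and 35.1 ± 3.64 in FY (log2 change 0.89, SE 0.18, limma adjusted p = 0.0134). Cyba, the membrane subunit of the phagocyte NADPH oxidase, averaged 191 ± 28.1 in FO and 107 ± 13.2 in FY (0.83, SE 0.15, adjusted p = 0.00363). Pik3cg, a catalytic subunit of phosphoinositide 3-kinase, averaged 24.0 ± 2.92 in FO and 15.7 ± 2.13 in FY (0.53, SE 0.13, adjusted p = 0.0490), with 2 FY arrays at the floor. Syk itself, the kinase that binds the phosphorylated ITAM, was below 16 in all 24 arrays and not kept, so that its level could not be followed.

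Of 13 phosphatases and adaptors of inhibitory signalling 6 were kept, with a median log2 change of 0.20 for FO against FY, and Ptpn6 was called. Ptpn6, a tyrosine phosphatase recruited by many ITIM receptors, averaged 58.3 ± 11.7 in FO and 33.3 ± 5.12 in FY (0.80, SE 0.16, limma adjusted p = 0.0121). Inpp5d, the lipid phosphatase that binds the motif of Fcgr2b, averaged 28.4 ± 5.64 in FO and 20.04 ± 4.14 in FY (0.45, SE 0.19, adjusted p = 0.644). Of 19 other ITIM receptors 3 were kept and none was called, with a median of 0.20. None of the genes in these lists was called between MO and MY.

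**Figure D4:**
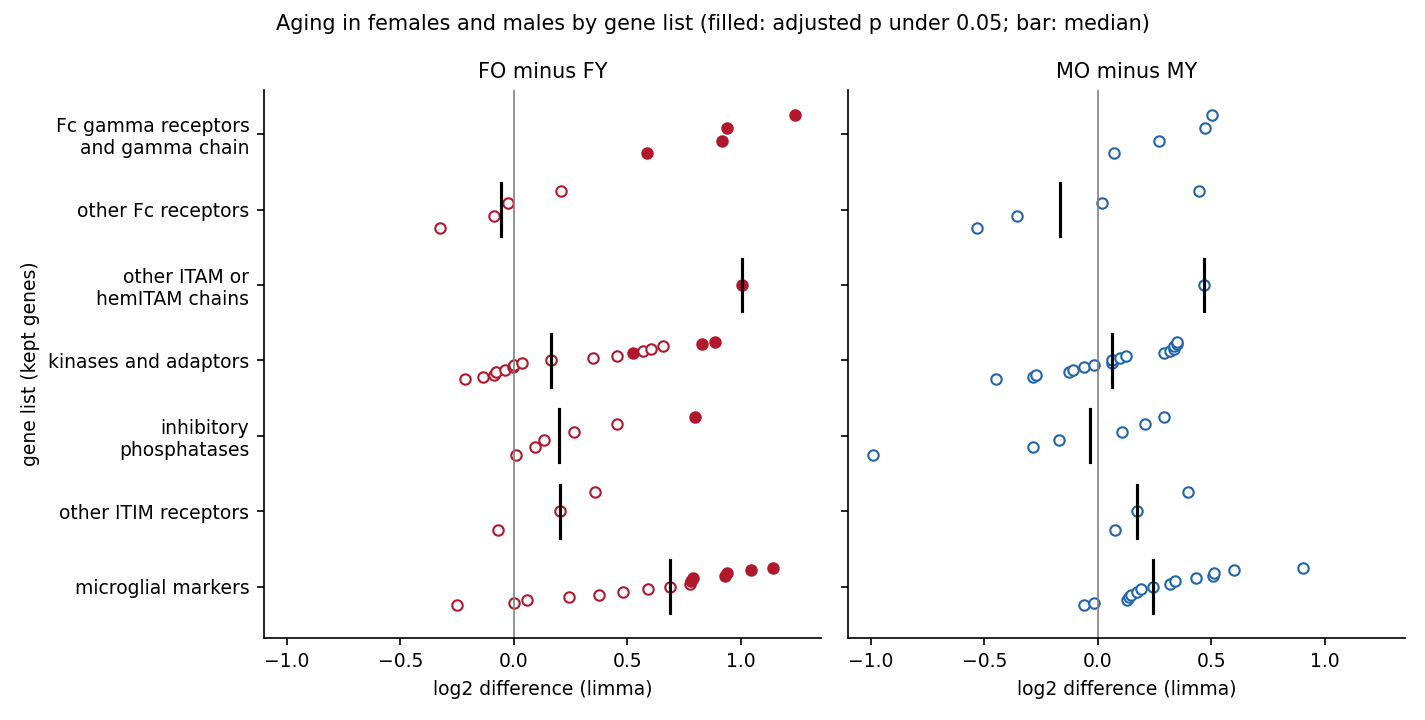
Log2 change (x axis) of kept genes by list (y axis), for FO minus FY and MO minus MY. Points are genes, filled at an adjusted p under 0.05, and bars are list medians, drawn for all lists but the Fc gamma receptors. Among kinases and adaptors, 3 of 17 genes are filled for FO minus FY and none for MO minus MY.

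Some microglial markers were also higher in old females. Of 20 markers 15 were kept, and 6 were called higher in FO than in FY (Tmem119, Aif1, Trem2, C1qa, C1qb and C1qc), with a median log2 change of 0.69, against 0.24 and none called for MO against MY. The other 9 were not called, among them P2ry12 (-0.25), Sall1 (-0.00), Siglech (0.06) and P2ry13 (0.24). Of the 15 kept markers, called or not, 13 had a positive change. Itgam and Spi1 had probes that were not kept. The mean log2 intensity over the 15 genes was 7.31 to 7.62 in FO and 6.82 to 7.05 in FY, and 6.999 to 7.39 in MO and 6.77 to 6.91 in MY.

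The receptor genes were also set against this microglial mean in the same array. The microglial mean was 0.57 higher in FO than in FY, and after its subtraction the FO minus FY difference was 0.67 for Fcgr2b, 0.36 for Fcgr3, 0.34 for Fcer1g and 0.01 for Fcgr1, the last with floored FY values. For MO against MY the mean was 0.30 higher, and the differences were 0.20 for Fcgr2b, 0.17 for Fcgr3, -0.03 for Fcer1g and -0.23 for Fcgr1. These values are a description, and the part of microglial number in the receptor changes was not tested.

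Markers of the other leukocytes known to carry Fc receptors were mostly undetected. Of the measured genes, 1 of 10 was kept for perivascular and border macrophages, 1 of 12 for monocytes and neutrophils, 1 of 8 for B and plasma cells, 1 of 9 for mast cells and basophils and 0 of 11 for T and NK cells, and none of those kept was called. The macrophage marker Mrc1 averaged 22.2 ± 1.68 in FO and 39.7 ± 13.4 in FY (log2 change -0.79, limma adjusted p = 0.473). Choroid plexus genes varied widely, with a mean log2 intensity over 5 kept genes of 7.07 to 8.54 in FO and 6.90 to 10.7 in FY, and a median change of -1.87 in old against young females and -1.97 in old against young males, with none called. Meningeal fibroblast genes had median changes of -0.97 in FO against FY and -0.96 in MO against MY over 4 kept genes, with none called. Erythrocyte and platelet genes had 3 kept of 8 measured (Hba-a1, Hbb-bt and Alas2), all with higher means in FO, with median changes of 0.56 in FO against FY and 1.27 in FO against MO and none called. Their mean log2 intensity was 7.14 to 10.3 in FO, 7.43 to 8.36 in FY and 6.85 to 7.41 in MO. The part of these cells in the receptor values was not tested.

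The genes with patterns most like those of the receptors included genes known from microglia and other myeloid cells. Over the 24 arrays and 8479 other kept genes, the highest Pearson r of Fcgr3 was with Fcer1g (0.883), its own signalling chain, followed by Cyba, Lyz1, C1qb and Tyrobp. Fcer1g was closest to Cyba (r = 0.953), C1qb (r = 0.947), Cd52, Lyz1 and Pld4. By r with Fcer1g, Fcgr3 ranked only 15, Fcgr2b 23 and Fcgr1 34. Fcgr2b was closest to the lysozyme genes Lyz2 (r = 0.908) and Lyz1, then Ms4a6d, Cd52 and Ccl4, and Fcgr1 to Trim30a (r = 0.908), C1qa, Ccl4, Depp1 and Ms4a6d. Fcgr1 was kept through FO alone and was at the floor in 4 FY, 4 FA, 3 MY, 2 MA and 1 MO arrays. Its correlations over the 24 arrays therefore mostly set FO against floored values.

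On deviations from the group means, the same correlations were lower. There r was 0.863 between Fcer1g and Cyba, 0.809 between Fcer1g and C1qb, 0.728 between Fcgr2b and Lyz2, 0.588 between Fcgr3 and Fcer1g and 0.682 between Fcgr1 and Trim30a. Among the receptors it was 0.194 between Fcgr2b and Fcgr3 and 0.106 between Fcgr2b and Fcgr1. All FY and FA values of Fcgr1 are at the floor and have no deviation, so its r here rests on the other groups. Arrays share normalization, and the correlations are given without a test.

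Fcgr2b, Fcgr3, Fcgr4 and Fcer1g lie close together on chromosome 1 and Fcgr1 lies on chromosome 3. In the RefSeq annotation 17 protein-coding genes span the stretch from Fcgr2b to Fcer1g with 3 flanking genes on each side, 14 of them other than Fcgr2b, Fcgr3 and Fcer1g. Of these, Sdhc, Adamts4 and B4galt3 were kept, with log2 changes of -0.07, 0.22 and 0.04 for FO against FY, and none was called. Within this stretch Fcgr2b, Fcgr3 and Fcer1g were thus called and the 3 other kept genes were not.

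The 60 bases before the RefSeq transcription start sites (GRCm38.p6, all on the minus strand of the chromosome and printed 5′ to 3′ along the gene) are shown because these genes were all higher in FO than in FY. Capitals mark TTCCTC, the reverse complement of GAGGAA, which is a core recognised by the myeloid factor encoded by Spi1.
Fcgr1, chr3:96293970-96294029: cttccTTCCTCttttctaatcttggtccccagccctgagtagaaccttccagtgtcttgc
Fcgr3, chr1:171059395-171059454: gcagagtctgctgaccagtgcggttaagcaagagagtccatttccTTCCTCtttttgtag
Fcgr2b, chr1:170976072-170976131: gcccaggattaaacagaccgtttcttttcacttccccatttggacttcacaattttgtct
Fcer1g, chr1:171234350-171234409: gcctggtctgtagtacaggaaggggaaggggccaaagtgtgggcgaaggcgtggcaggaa
GAGGAA was searched on both strands over 250 bases before each start site, with the longer GAGGAAGT that contains it. The core was present 1 time each before Fcgr1 and Fcgr3 and was not found before Fcgr2b and Fcer1g. It occurs in 23.3% of 32851 RefSeq promoters and in 26.1% of the kept genes that have one. Other forms of the site were not searched, and a role of the factor in these changes was not tested. The longer form, found in 2.44% of promoters, was in none of the 4.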

How the data were processed

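Hippocampal RNA of 24 mice (4 per group) was measured on Illumina arrays. The intensity values were made by the authors with average normalization and background subtraction in GenomeStudio (2011.1 per the submitters' processing notes) and deposited on a linear scale. The labels name Trizol and RNeasy extraction and the methods AllPrep, so the extraction is uncertain. A second deposited table has 48 columns whose names match no sample and was not used here, so the methods' filter on detection p-values was replaced by the floor of 16. Scanner slides are not given in the sources used here. Groups come from the sample titles. Probe symbols come from the platform annotation (23978 of 25697 probes), and promoters from RefSeq (GRCm38.p6).

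Values were floored at 16, log2 transformed and compared with limma 3.58.1 in R 4.3.3, fitting 6 group means, moderating variances by empirical Bayes with an intensity trend, and adjusting p-values (Benjamini-Hochberg) over 11901 kept probes. For lists, the probe with the highest mean stands for a gene. Differences between 2 probes were tested by exact permutation. The procedure was tested on simulated data. Named were every probe of the 4 genes, the called genes of each list and the 5 genes most correlated with each kept gene. Genes given beside them as context were chosen for their role after their values were seen. The genes and lists were chosen with earlier results of these data known. Alternatives were a floor of 8 or 32, 50 added in place of a floor, no filter, quantile normalization, array weights, no trend, only the compared groups, a replicate block, the methods' test and leaving out each array. The number of arrays limits the precision.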

Additional observations from a re-analysis of the deposited data

Results flagged for a closer look

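In 54 groups of 4 values (4 kept probes and 5 probe differences in 6 groups), 5 had 1 array apart from the other 3, where chance gives about 1 in 20 groups. The measure is the gap of that array to its nearest neighbour as a share of the group's range. It was 1 for Fcgr1 in MY, where 3 arrays were at the floor of 4 on the log2 scale and replicate 2 was at 4.14. It was 0.832 for Fcer1g in MY, where replicate 2 was highest at 8.35 and the others were 8.08 to 8.13. Fcer1g minus Fcgr2b in MY had 0.847, with replicate 1 at 3.66 and the others at 4.06 to 4.13. Fcer1g minus Fcgr3 in FY had 0.985, with replicate 1 at 2.13 and the others at 2.33. Fcgr3 minus Fcgr2b in MO had 0.834, with replicate 2 at 0.95 and the others at 1.69 to 1.84. No such array was found for the 4 kept probes in FO.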

How the results depend on the processing

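The log2 changes of Fcgr2b, Fcgr3 and Fcer1g for FO against FY kept their direction and an adjusted p under 0.05 in each alternative that gives one. The methods' test, as rerun here on the floored values, called them with and without Benjamini-Hochberg adjustment. The change of Fcgr1 lost its call with a floor of 32 (0, adjusted p = 1), which lies above every Fcgr1 value, and with only FO and FY in the fit (0.59, adjusted p = 0.125, fewer arrays). For FO against MO, where limma called none of the 4, 1 was called with a floor of 32 (Fcgr2b 0.45, adjusted p = 0.0130), without a filter (Fcgr1 0.48, adjusted p = 0.00462) and without a trend (Fcgr1 0.48, adjusted p = 0.00715). The methods' test called 4 there (Fcgr1 0.48, Fcgr2b 0.79, Fcgr3 0.55, Fcer1g 0.62) and none of them after Benjamini-Hochberg adjustment, and it called 1 for MO against MY (Fcgr3 0.47) without and with it. The cause of these differences was not tested. All FY and FA values of Fcgr1 are at the floor and add no spread to the fit, so its p-values do not reflect the full spread between mice. Of all probes tested, the methods' test called 532 for FO against MO, 372 for MO against MY and 59 for the latter after adjustment, in both directions. Without a filter limma called 11 for FO against MO.

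Replicate numbers did not pair the mice (60 same-numbered pairs, r -0.447 to 0.555, 19 over 0.1, and 6 of 24 arrays closest to their own number). With the number as a replicate block, 1 of the 4 was called for FO against MO (Fcer1g 0.62, adjusted p = 0.0346) and none for MO against MY. All 4 were called for FO against FY, Fcgr1 among them, which was kept through FO alone. Apart from leaving out arrays, the alternatives called 63 to 332 of all probes for FO against FY. They called 4 to 532 for FO against MO and 1 to 372 for MO against MY.

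With a floor of 32, Fcgr3 minus Fcgr2b turned to 0.47 (FO against FY), 0.45 (MO against MY) and 0.10 (FO against MO), and Fcer1g minus Fcgr2b to 0.45, 0.24 and 0.18. With 50 added they were 0.103, 0.0769 and 0.0356, and 0.335, 0.0425 and 0.242, and Fcer1g minus Fcgr3 was 0.23 for FO against FY. A floor of 32 removes most of the Fcgr2b signal, which was under 32 in all young and adult arrays. Leaving out each array moved Fcgr3 minus Fcgr2b from -0.17 to 0.18 for MO against MY (above 0 without MY replicate 2 or 3 or MO replicate 2), Fcer1g minus Fcgr3 from -0.0917 to 0.049996 for FO against FY and from -0.0419 to 0.200 for FO against MO, the Fcgr1 change from -0.000922 to 0.0892 for MO against MA, and the Fcgr2b change from -0.0591 to 0.196 for FA against MA. Background correction from unnormalized signal and a slide block were not run, since those columns match no sample, and Fcgr2b has no second kept probe to try. The low signal of Fcgr1 and Fcgr2b, near the floor outside FO, limits both.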
